A study of Homo sapiens with 8 samples.

Results

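The genes described here are 10 of the 62649 genes counted: the NF-kB subunit genes NFKB1, RELA, NFKB2 and RELB, the inhibitor genes NFKBIA, NFKBIB and NFKBIE, the nuclear co-regulator BCL3, and the feedback genes TNFAIP3 and BIRC3. They were taken by symbol from a list of pathway members, and all 10 passed the filter on low counts. The list was chosen with earlier results of these data known, so that counts of called genes are not independent of the data. Poly-A RNA was sequenced from SW480 and SW620, colorectal adenocarcinoma lines derived from a primary tumour and a lymph node metastasis of the same person. The 8 libraries formed 4 groups of 2, with a control and a caffeine group for each line. All of them came from cells carrying a fluorescent immunoproteasome subunit (the SW480-B8mCherry and SW620B8-mCherry lines), so that the controls share this fusion, and control cells had no treatment. Caffeine doses stand in the labels for SW620 alone (30 to 500 µM over 72 hours, 125 µM over 28 days), are not tied to a sequenced library, and are missing for SW480. The replicates are called biological, without a word on separate cultures or days, so that p-values measure only the spread between these libraries.

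NF-kB factors are dimers of RELA, RELB or REL with the processed products of NFKB1 and NFKB2. In the canonical pathway, receptors such as the TNF receptor activate the IKK complex, which marks IkB proteins (encoded by NFKBIA, NFKBIB and NFKBIE) for proteasomal degradation and releases dimers of RELA and the NFKB1 product p50. In the non-canonical pathway, receptors such as the lymphotoxin receptor or the TWEAK receptor stabilise the kinase NIK (MAP3K14), the proteasome trims the NFKB2 precursor p100 to p52, and dimers of p52 and RELB form. Many of these genes are themselves NF-kB targets, among them NFKBIA and TNFAIP3, whose products shut the pathway down, so that their transcripts are commonly used as readouts of activity.

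On GRCh38, NFKB1 (chr4:102501329-102617302), NFKB2 (chr10:102394110-102402529), RELB (chr19:45001430-45038198), NFKBIB (chr19:38899700-38908893), BCL3 (chr19:44747705-44760044), TNFAIP3 (chr6:137867188-137883312) and BIRC3 (chr11:102317450-102339403) lie on the plus strand. RELA (chr11:65653596-65663094), NFKBIA (chr14:35401511-35404749) and NFKBIE (chr6:44258166-44265788) lie on the minus strand. Values are per gene and do not separate isoforms.

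Most of the members have letters of the kappa B motif, the sequence that NF-kB dimers bind, in a promoter window. Promoter windows of 300 bases (250 before and 50 after a RefSeq start, GRCh38.p14) were found for 8 of the 10 genes, with no entry for RELB and NFKBIE, and some genes had several starts. The windows were searched on both strands for the kappa B consensus, and overlapping matches were counted separately. Of these 8 genes 7 had at least 1 match in a window, RELA being the exception, against 13.3% of 27305 genes with a window. A match of letters is a description and not evidence of binding. The windows below belong to the 3 genes that rose with caffeine in SW620 and held a match (NFKB2, BCL3 and BIRC3), and to NFKBIA and TNFAIP3, which held a match and were not called, the latter pair chosen after their values were seen. Capitals mark the matches.
NFKB2, upper window (chr10:102394328-102394627, plus strand): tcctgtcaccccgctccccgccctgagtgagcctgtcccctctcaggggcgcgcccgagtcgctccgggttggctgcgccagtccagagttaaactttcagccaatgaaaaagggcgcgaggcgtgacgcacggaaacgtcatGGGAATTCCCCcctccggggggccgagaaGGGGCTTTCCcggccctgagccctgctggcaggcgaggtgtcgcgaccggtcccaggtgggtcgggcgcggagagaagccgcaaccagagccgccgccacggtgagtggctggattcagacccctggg
NFKB2, lower window (chr10:102395455-102395754, plus strand): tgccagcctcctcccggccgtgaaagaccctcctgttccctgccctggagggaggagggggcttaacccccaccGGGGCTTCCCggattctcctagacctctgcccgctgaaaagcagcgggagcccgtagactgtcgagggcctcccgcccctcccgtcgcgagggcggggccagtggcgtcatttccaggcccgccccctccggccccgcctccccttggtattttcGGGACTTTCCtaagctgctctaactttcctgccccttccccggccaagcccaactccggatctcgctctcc
BCL3 (chr19:44748458-44748757, plus strand): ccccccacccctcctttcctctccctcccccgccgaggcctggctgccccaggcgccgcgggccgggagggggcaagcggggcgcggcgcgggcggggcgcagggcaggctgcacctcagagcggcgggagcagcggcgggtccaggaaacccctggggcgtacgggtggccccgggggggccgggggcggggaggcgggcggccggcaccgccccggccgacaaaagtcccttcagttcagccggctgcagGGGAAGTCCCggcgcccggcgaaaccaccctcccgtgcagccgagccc
BIRC3 (chr11:102317234-102317533, plus strand): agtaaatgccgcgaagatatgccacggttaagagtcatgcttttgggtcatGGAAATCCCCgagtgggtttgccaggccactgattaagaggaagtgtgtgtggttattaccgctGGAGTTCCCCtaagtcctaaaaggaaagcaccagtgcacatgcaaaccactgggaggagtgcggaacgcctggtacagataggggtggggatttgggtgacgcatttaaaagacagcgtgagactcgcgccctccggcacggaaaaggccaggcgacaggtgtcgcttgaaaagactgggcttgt
NFKBIA (chr14:35404700-35404999, minus strand): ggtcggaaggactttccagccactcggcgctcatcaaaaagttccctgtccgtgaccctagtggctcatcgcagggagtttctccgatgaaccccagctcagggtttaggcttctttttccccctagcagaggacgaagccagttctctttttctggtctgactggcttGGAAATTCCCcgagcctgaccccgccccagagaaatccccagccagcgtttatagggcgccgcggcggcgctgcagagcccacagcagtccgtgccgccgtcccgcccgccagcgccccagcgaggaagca
TNFAIP3 (chr6:137867009-137867308, plus strand): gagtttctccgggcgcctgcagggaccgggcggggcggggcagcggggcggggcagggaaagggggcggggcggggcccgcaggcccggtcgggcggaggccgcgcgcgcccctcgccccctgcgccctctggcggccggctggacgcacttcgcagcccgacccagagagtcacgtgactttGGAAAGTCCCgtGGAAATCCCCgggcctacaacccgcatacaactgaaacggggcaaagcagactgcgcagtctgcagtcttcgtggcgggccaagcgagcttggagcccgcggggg
The upper NFKB2 window held 3 matches, of which the outer pair began 107 and 78 bases before the start, and the lower window held 2, while another NFKB2 window farther upstream held 0. A window of NFKBIB, which was not called, also held 3. Among all 35116 windows, 11.3% held at least 1 match, 2.04% at least 2 and 0.370% at least 3. The BCL3 match began at base 3, with the start itself counted as base 1. The NFKBIA match began 81 bases before the start, and the TNFAIP3 matches 67 and 55 bases before it. The BIRC3 matches lay farther upstream, at 199 and 135 bases before the start.

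Libraries held 15760259 to 23269315 reads assigned to genes, so that the limit allowed by a count of 0 (3 counts) lay between 0.129 and 0.190 CPM. In SW480 caffeine replicate 2 mitochondrial genes took 1.63% of assigned reads, against 4.38% to 6.16% in the other 7 libraries. The epithelial keratins KRT8 and KRT18 had group means of 2189 CPM or more, whereas CDH1 was at 0.801 CPM in SW480 controls and 195 CPM in SW620 controls, and CDX1 had 0 counts in all libraries. The leukocyte genes PTPRC and MS4A1 were at no more than 1 count in any library. Of the 11 leukocyte markers 8 averaged under 1 CPM in each group, and the others were at 1 CPM or more. The 7 endothelial markers summed to 9.72 and 9.82 CPM in SW620 control and 15.5 and 16.1 CPM in SW620 caffeine libraries, where PECAM1 and VWF, the only 2 tested, rose, while KDR and EMCN had 0 counts in all SW620 libraries. The 8 fibroblast markers summed to 37.8 and 40.1 CPM in SW620 control and 48.6 and 45.8 CPM in SW620 caffeine libraries, with 1 of 3 tested called higher, and the 11 leukocyte markers to 7.07 to 8.04 CPM in SW620, with none of 6 called. In SW480 the leukocyte sum was 46.2 and 37.6 CPM in control and 28.3 and 27.0 CPM in caffeine libraries, with 1 of 6 called lower. The 9 epithelial markers summed to 10735 and 10667 CPM in SW620 control and 14324 and 12915 CPM in SW620 caffeine libraries, with 2 of 8 tested called higher and 1 lower. In SW480 their sum was 4623 and 6014 CPM in control and 6562 and 6900 CPM in caffeine libraries, with none of 8 called. The part of these markers in the results that follow was not tested.

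In SW620, caffeine raised 6 of the 10 genes and lowered none. The subunit gene NFKB2 rose 2.71-fold, the co-regulator BCL3 2.61-fold and the ubiquitin ligase gene BIRC3 2.17-fold. NFKBIE, RELB and RELA rose by smaller amounts, whereas NFKB1, NFKBIA, NFKBIB and TNFAIP3 were not called. Among all 17671 tested genes 14.4% were called in this comparison, 8.10% higher and 6.25% lower. The median log2 fold change of the 10 genes was 0.46, beside -0.01 over all tested genes. The same 6 genes had higher values in both caffeine libraries than in either control library, a pattern seen in 29.7% of tested genes, and TNFAIP3 lay lower without overlap, as did 32.4%, so that groups apart in either direction were found in 62.0% of tested genes.

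The non-canonical subunits both rose in SW620. NFKB2, the gene of p100 and p52, measured 42.8 and 41.1 CPM in the control and 117 and 111 CPM in the caffeine libraries (replicates 1 and 2). The caffeine libraries stood far above the controls, which lay close to each other. The log2 fold change was 1.44 ± 0.14 (SE, n = 2 per group, adjusted p = 3.01e-06 by the quasi-likelihood test of edgeR), and the call held under all 14 alternatives, with adjusted p up to 0.000239. RELB, the partner of p52, measured 17.9 and 15.0 CPM without and 23.9 and 23.4 CPM with caffeine. Its groups did not overlap, but the controls differed by more than the caffeine libraries did. The RELB log2 fold change was 0.52 ± 0.15 (edgeR adjusted p = 0.0291), and its call ended without any 1 of the 4 SW620 libraries, with adjusted p from 0.0806 to 0.323.

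Of the canonical subunits RELA was called in SW620 and NFKB1 was not. RELA, the main transactivating subunit, measured 80.9 and 81.3 CPM in the control and 110.1 and 102 CPM in the caffeine libraries of SW620. The caffeine libraries lay above both controls, and the log2 fold change was 0.39 ± 0.12 (edgeR adjusted p = 0.0336). That call ended with the replicate block (adjusted p = 0.0544) and without any 1 of the SW620 libraries (0.0958 to 0.243). NFKB1, the gene of p105 and p50, measured 78.0 and 73.3 CPM without and 75.5 and 86.9 CPM with caffeine. These ranges overlapped, and NFKB1 was not called (log2 fold change 0.10 ± 0.13, edgeR adjusted p = 0.653).

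Among the inhibitors and feedback genes, BCL3, BIRC3 and NFKBIE rose in SW620. BCL3 binds p50 or p52 homodimers in the nucleus and measured 4.76 and 3.96 CPM in control against 13.5 and 9.31 CPM in caffeine libraries. The caffeine libraries differed from each other more than the controls did, and the groups stood apart. Its log2 fold change was 1.38 ± 0.21 (edgeR adjusted p = 0.000348). BIRC3, which encodes the ubiquitin ligase cIAP2 of TNF receptor complexes, measured 7.14 and 8.52 CPM without and 15.4 and 18.6 CPM with caffeine. The lowest caffeine library stood well above the highest control. The BIRC3 log2 fold change was 1.12 ± 0.20 (edgeR adjusted p = 0.00115). Both genes kept their calls under all 14 alternatives, with adjusted p up to 0.0134 for BCL3 and 0.0347 for BIRC3. NFKBIE, the gene of IkB-epsilon, measured 5.87 and 5.51 CPM without and 9.41 and 10.3 CPM with caffeine. Its groups were also apart, with a log2 fold change of 0.79 ± 0.18 (edgeR adjusted p = 0.00728). The NFKBIE call ended without SW620 caffeine replicate 2 (adjusted p = 0.0723), SW620 control replicate 1 (0.0608) or SW620 control replicate 2 (0.0957).

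The inhibitor and feedback genes NFKBIA, TNFAIP3 and NFKBIB did not pass the test in SW620. NFKBIA, the gene of IkB-alpha, measured 40.3 and 39.8 CPM in the control and 39.7 and 42.1 CPM in the caffeine libraries. These values overlapped within a narrow range, with a log2 fold change of 0.03 ± 0.13 (edgeR adjusted p = 0.915). TNFAIP3, the gene of the ubiquitin-editing enzyme A20, measured 25.8 and 27.2 CPM without and 22.7 and 24.2 CPM with caffeine. Its caffeine libraries lay just under the controls, and the log2 fold change was -0.18 ± 0.15 (edgeR adjusted p = 0.487). NFKBIB, the gene of IkB-beta, measured 31.5 and 28.4 CPM without and 29.2 and 28.0 CPM with caffeine, which overlapped (-0.07 ± 0.15, edgeR adjusted p = 0.823). All 3 of these genes had a kappa B match in the windows searched, as did NFKB2, BCL3 and BIRC3. The part of these matches in the caffeine response was not tested.

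**Figure D1:**
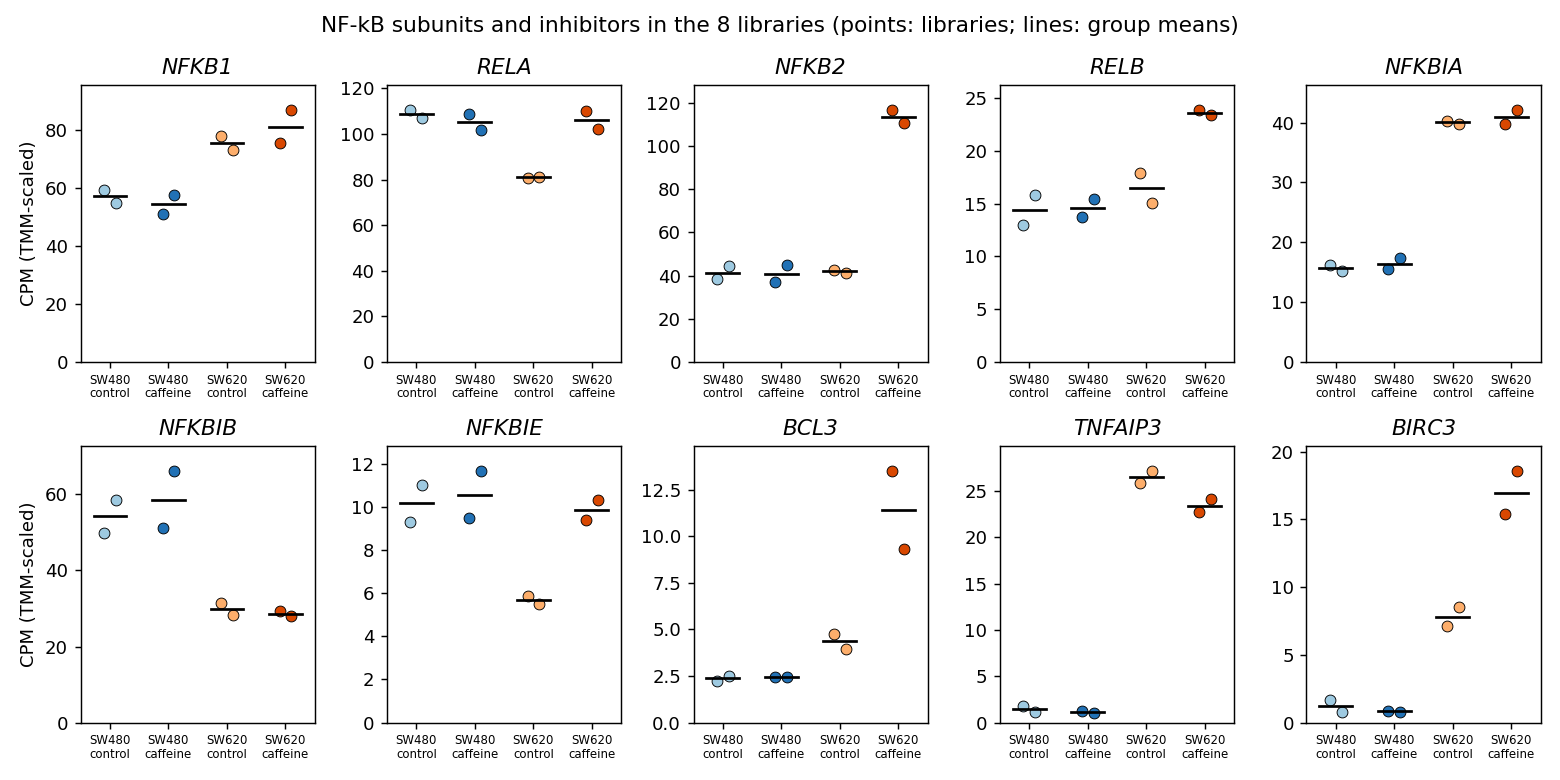
Level of each gene (CPM after TMM scaling, vertical axis, each panel with its own scale from 0) in the 8 libraries, with points for libraries and lines for the mean of 2. NFKB2, BCL3 and BIRC3 are highest in SW620 caffeine libraries, while NFKBIA and TNFAIP3 differ mostly between the lines, with TNFAIP3 slightly lower in SW620 caffeine than in SW620 control libraries.

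In SW480, none of the 10 genes was called for caffeine by edgeR's quasi-likelihood test. None had an unadjusted p under 0.05 in that test either, the smallest being 0.135. DESeq2's Wald test and limma-voom also called 0. Of all tested genes 3.60% were called in SW480, 1.67% higher and 1.93% lower. The values of all 10 genes overlapped between control and caffeine libraries, whereas 43.0% of tested genes had groups without overlap, 21.5% with caffeine higher and 21.5% with caffeine lower. The median log2 fold change was 0.00, with 5 genes above 0 and 5 below. The replicates of SW480 differed from each other more than those of SW620 did, while all groups were fitted together. A gene not called in SW480 is therefore not shown to be without a response.

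NFKB2 in SW480 measured 38.6 and 44.2 CPM in the control and 36.9 and 45.0 CPM in the caffeine libraries, and the caffeine values enclosed the controls. RELB measured 13.0 and 15.8 CPM without and 13.7 and 15.5 CPM with caffeine. NFKBIA measured 16.2 and 15.2 CPM without and 15.5 and 17.4 CPM with caffeine. For these 3 genes the log2 fold changes were -0.01 ± 0.14, 0.02 ± 0.16 and 0.07 ± 0.14 (edgeR adjusted p = 0.982, 0.972 and 0.822). The values farthest from 0 belonged to the weakly expressed BIRC3 and TNFAIP3. BIRC3 had 28 and 14 counts in the control and 13 and 19 in the caffeine libraries, that is 1.69 and 0.817 against 0.837 and 0.809 CPM. Only control replicate 1 stood apart, and the log2 fold change of -0.60 ± 0.38 (edgeR adjusted p = 0.411) became 0.0057 without it. TNFAIP3 had 30 and 19 counts without and 20 and 24 with caffeine, with a log2 fold change of -0.36 ± 0.31 (edgeR adjusted p = 0.553), which turned to 0.029 without the same library. These standard errors were the largest of the 10 genes in this comparison.

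The caffeine responses of the lines were compared directly by the interaction of line and treatment. NFKB2, BCL3 and BIRC3 responded differently, each more positively in SW620, so that 3 of 10 genes were called, beside 6.71% of all tested genes, 4.24% in this direction and 2.47% in the other. For NFKB2 the difference of the log2 effects (SW620 minus SW480) was 1.45 ± 0.19 (SE, edgeR adjusted p = 0.000236), and it kept its call under all 13 alternatives. For BCL3 the difference was 1.33 ± 0.35 (edgeR adjusted p = 0.0282). The BCL3 call ended with limma-voom (0.0574) and when SW480 caffeine replicate 1 or 2 (0.0524 and 0.0998), SW620 caffeine replicate 1 (0.107) or either of the SW620 control libraries (0.0596 and 0.128) was left out. For BIRC3 it was 1.72 ± 0.43 (edgeR adjusted p = 0.0238), a value that rests in part on SW480 control replicate 1, without which it was 1.11 (adjusted p = 0.238). That call also ended with limma-voom (0.0600), without SW480 caffeine replicate 2 (0.116), SW620 caffeine replicate 2 (0.0721) or SW620 control replicate 1 (0.0800). RELA, RELB and NFKBIE, which rose in SW620 and were not called in SW480, had differences of 0.44 ± 0.16, 0.50 ± 0.22 and 0.73 ± 0.25. None of these 3 passed the threshold (edgeR adjusted p = 0.119, 0.183 and 0.0888), so that a difference between the lines is not shown for them.

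**Figure D2:**
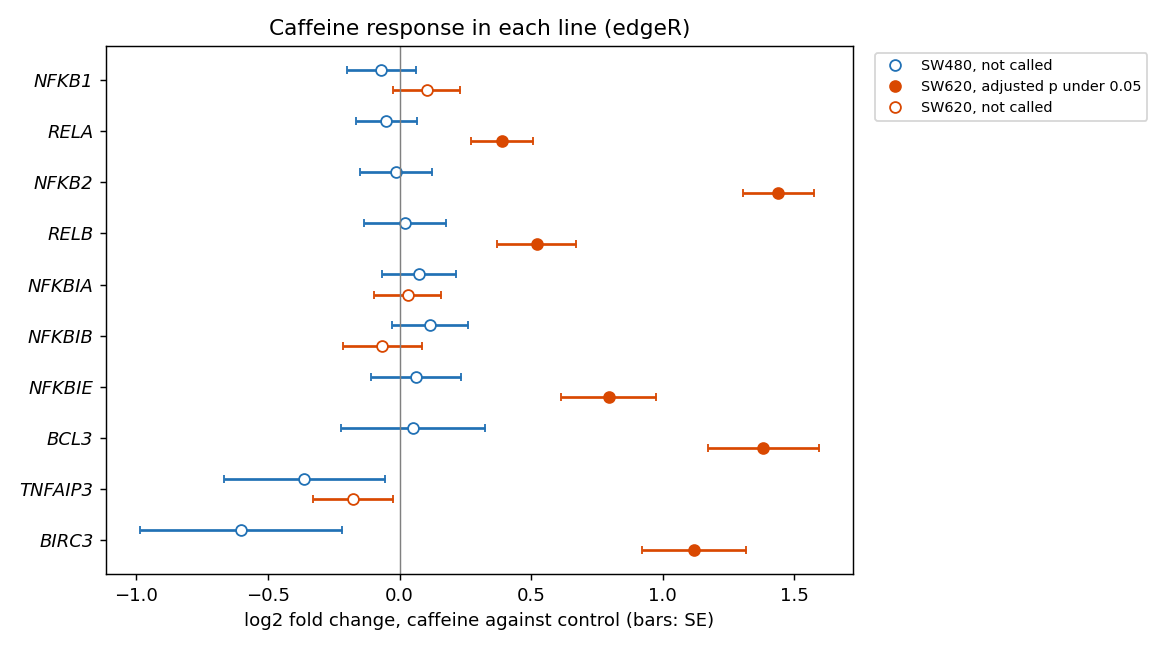
Log2 fold change of caffeine against control (horizontal axis, bars: SE) for the 10 genes in SW480 and SW620, with filled points for genes called by edgeR. The 6 filled points are all from SW620 and lie between 0.39 and 1.44, and the SW480 points lie between -0.60 and 0.11.

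Without caffeine, several inhibitor and feedback genes and both canonical subunits differed between the lines. SW620 controls had 18.1 times the TNFAIP3, 6.24 times the BIRC3 and 2.56 times the NFKBIA level of SW480 controls, and lower NFKBIB and NFKBIE. Of the 10 genes 5 were higher and 3 lower in SW620, against 65.6% of all tested genes called, 33.0% higher and 32.6% lower. The same 8 genes had groups without overlap, which 83.4% of tested genes had, 42.8% higher and 40.6% lower. Being called is thus common in this comparison, and the counts are near the background. NFKB2 and RELB, the non-canonical subunits, were not called.

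TNFAIP3 measured 1.81 and 1.11 CPM in SW480 control and 25.8 and 27.2 CPM in SW620 control libraries, a log2 difference of 4.18 ± 0.21 (SE, SW620 minus SW480, edgeR adjusted p = 2.18e-11). Every SW620 library exceeded 20 CPM and every SW480 library lay under 2 CPM. For BIRC3 the log2 difference was 2.64 ± 0.27 (edgeR adjusted p = 2.31e-07), and 3.25 without SW480 control replicate 1. NFKBIA stood at 15.7 ± 0.693 CPM in SW480 control and 40.0 ± 0.346 CPM in SW620 control (mean ± SD, n = 2), a log2 difference of 1.35 ± 0.13 (edgeR adjusted p = 1.49e-07). BCL3 was also higher in SW620 controls, by 0.87 ± 0.25 (edgeR adjusted p = 0.00607), and lost its call without SW620 control replicate 1 (0.0569).

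The other IkB genes went the opposite way. NFKBIB measured 49.9 and 58.6 CPM in SW480 control against 31.5 and 28.4 CPM in SW620 control libraries (-0.86 ± 0.15, edgeR adjusted p = 7.76e-05). NFKBIE measured 9.32 and 11.0 CPM against 5.87 and 5.51 CPM (-0.84 ± 0.18, edgeR adjusted p = 0.000655). Neither gene overlapped between the lines. The canonical subunits were split, with RELA lower in SW620 (-0.42 ± 0.12, edgeR adjusted p = 0.00424) and NFKB1 higher (0.41 ± 0.13, edgeR adjusted p = 0.0112). NFKB1 lost its call without SW480 control replicate 2 (0.0709) or SW620 control replicate 1 (0.103). NFKB2 stood at 41.4 ± 3.99 CPM in SW480 control and 41.9 ± 1.18 CPM in SW620 control, with a log2 difference of 0.02 ± 0.14 (edgeR adjusted p = 0.919). RELB differed by 0.19 ± 0.16 (edgeR adjusted p = 0.291).

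With caffeine, 7 of the 10 genes were higher in SW620 than in SW480 and 1 was lower, against 66.3% of tested genes called, 32.9% higher and 33.4% lower. Their groups did not overlap, as in 81.4% of tested genes, 40.7% higher and 40.7% lower. This comparison shares its libraries with those above and is given for the resulting levels. NFKB2 and RELB joined the genes that were higher in SW620, by log2 values of 1.47 ± 0.14 and 0.69 ± 0.15 (edgeR adjusted p = 5.79e-08 and 0.000755). RELA and NFKBIE, lower in SW620 among controls, were no longer called (0.02 ± 0.12 and -0.11 ± 0.17, edgeR adjusted p = 0.912 and 0.602). BIRC3 reached a log2 difference of 4.36 ± 0.27 and TNFAIP3 of 4.36 ± 0.22 (edgeR adjusted p = 3.38e-10 and 1.78e-11). All 8 calls held under the 13 alternatives.

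Levels of different genes were compared as CPM per kb of merged exon length, which treats all annotated isoforms as present. In SW480 controls the order was led by NFKBIB with 23.3 and RELA with 19.9 CPM per kb, followed by NFKB2 (9.24) and NFKB1 (9.12), whose libraries overlapped. NFKBIA (6.60), RELB (4.75) and NFKBIE (3.94) came next, and BCL3 (0.732), TNFAIP3 (0.289) and BIRC3 (0.167) were lowest, the last pair overlapping. In SW620 controls NFKBIA led with 16.9 CPM per kb, ahead of RELA (14.8). NFKBIB (12.9) and NFKB1 (12.1) overlapped, as did RELB (5.43) and TNFAIP3 (5.24), with NFKB2 (9.35) between these pairs. NFKBIE (2.21), BCL3 (1.34) and BIRC3 (1.04) closed the order. In SW620 with caffeine NFKB2 stood first with 25.4 CPM per kb, above RELA (19.4) and NFKBIA (17.2) without overlap. NFKB1 (13.0) and NFKBIB (12.3) overlapped again, then came RELB (7.79) and TNFAIP3 (4.64), while NFKBIE (3.82) overlapped with BCL3 (3.52), and BIRC3 (2.26) was lowest. The order in SW480 with caffeine was that of its controls, with NFKBIE (4.09) overlapping RELB (4.80) and TNFAIP3 and BIRC3 apart. The top of the order rests on the lengths used. With the exons of the basic transcript set RELA led in all 4 groups, ahead of NFKBIB in SW480 controls and, with overlapping libraries, in SW480 with caffeine, of NFKBIA in SW620 controls (means of 23.9 against 21.1 CPM per kb) and of NFKB2 in SW620 with caffeine (32.5 and 30.2 against 31.7 and 30.1 CPM per kb, overlapping).

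The balance of non-canonical to canonical subunits was taken as the ratio of levels per kb. NFKB2 over NFKB1 was 0.907 and 1.13 in SW480 control, 1.01 and 1.09 in SW480 caffeine, 0.765 and 0.783 in SW620 control, and 2.16 and 1.78 in SW620 caffeine libraries. The SW620 caffeine libraries were thus well above the other 6, and the SW620 controls had the lowest ratios of the 8 libraries. RELB over RELA was 0.212 and 0.266 in SW480 control, 0.227 and 0.274 in SW480 caffeine, 0.399 and 0.333 in SW620 control, and 0.390 and 0.412 in SW620 caffeine libraries. This ratio separated the lines and overlapped between SW620 control and caffeine, where both genes rose. The shares of the 5 subunit genes, REL included, were also compared. In SW480 the mean shares in control and caffeine libraries were 46.0% and 45.8% for RELA, 21.1% and 20.6% for NFKB1, and 21.3% and 21.7% for NFKB2. In SW620 the mean NFKB1 share was 28.8% in control and 19.7% in caffeine libraries, without overlap. NFKB2 took 22.2% and 22.3% of their summed level per kb in SW620 control and 39.1% and 37.7% in SW620 caffeine libraries. The NFKB2 share was thus higher with caffeine in SW620, and RELA took 34.4% and 36.3% against 30.3% and 28.6%. Shares of a sum depend on each other, and the lower shares are not falls in level. By gene, NFKB1 was not called in SW620 and RELA was called higher (log2 fold changes 0.10 and 0.39). With basic-set lengths the NFKB2 share was 20.1% and 20.2% in SW620 control and 35.7% and 34.7% in SW620 caffeine libraries. REL stayed under 1% in all libraries.

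Among the 3 IkB genes, NFKBIB held the largest share of summed level per kb in SW480 and NFKBIA in SW620. NFKBIB took 67.3% and 70.3% in SW480 control and 41.3% and 39.3% in SW620 control libraries. NFKBIA took 21.3% and 17.8% in SW480 control and 51.8% and 53.9% in SW620 control libraries. Caffeine left the line difference in place, with NFKBIA at 20.3% and 18.2% in SW480 and 50.8% and 52.5% in SW620. The NFKBIE share was 6.94% and 6.86% in SW620 control and 11.1% and 11.8% in SW620 caffeine libraries. These ratios and shares are descriptions without a test of their own.

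**Figure D3:**
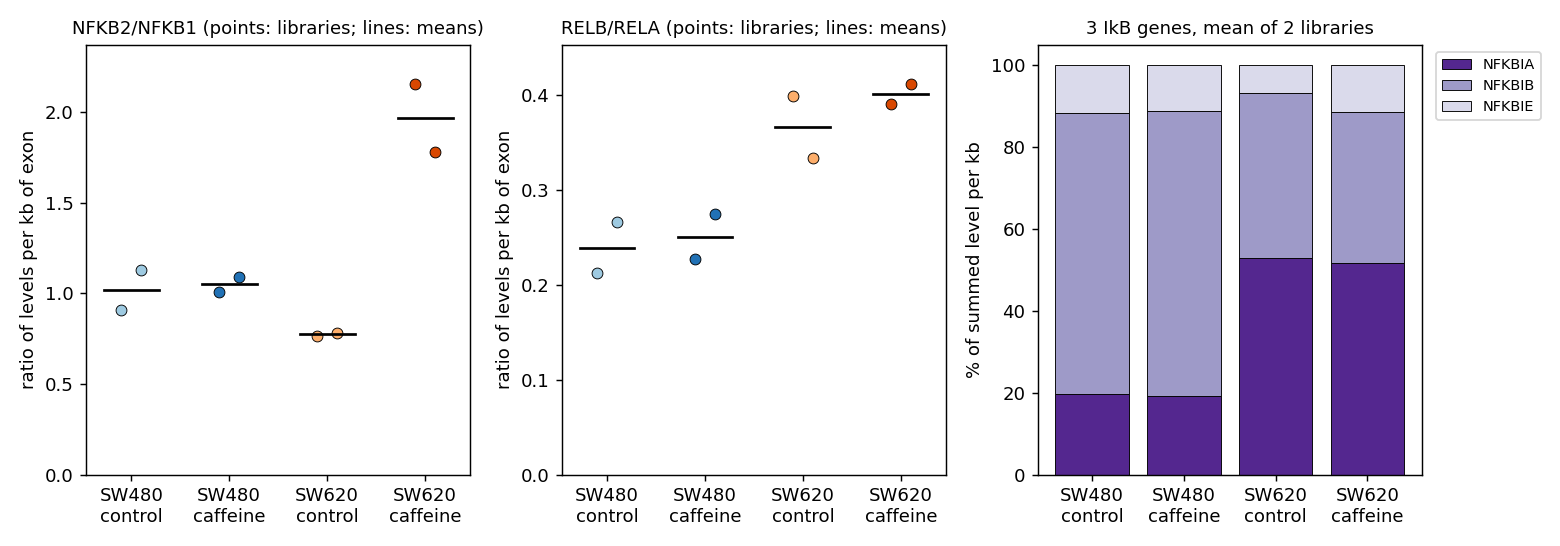
Ratios of levels per kb of exon for NFKB2 to NFKB1 and RELB to RELA (points: libraries, lines: means of 2), and the share of NFKBIA, NFKBIB and NFKBIE in their summed level per kb (stacked bars, mean of 2 libraries, %). The NFKB2 to NFKB1 ratio is 2.16 and 1.78 in SW620 caffeine libraries and at most 1.13 in the others, and the NFKBIA share is above 50% in SW620 and at most 21.3% in SW480.

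The rest of the pathway was described by 7 lists of ligands, receptors, adaptors, kinases, other subunits and inhibitors, negative regulators and target genes. Among ligands, TNF, LTA, LTB, IL1A and IL1B failed the filter on low counts, and 3 of 13 genes were tested. TNFSF12, the gene of TWEAK, was at 5.20 and 5.37 CPM in SW480 control and 0.101 and 0.150 CPM in SW620 control libraries (log2 difference -5.32 ± 0.45, edgeR adjusted p = 2.13e-08). No ligand was called for caffeine in either line.

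Of 17 tested receptors 1 fell in SW480 and 1 rose in SW620, and it was the same gene, the TWEAK receptor gene TNFRSF12A. Among all tested genes 1.93% fell in SW480 and 8.10% rose in SW620, so that the receptor count in SW620 was below the background. It measured 153 and 176 CPM in SW480 control and 123 and 104 CPM in SW480 caffeine libraries, against 66.1 and 63.0 CPM in SW620 control and 115 and 102 CPM in SW620 caffeine libraries. The groups did not overlap within either line, and moved in opposite directions. The log2 fold changes were -0.54 ± 0.13 in SW480 (edgeR adjusted p = 0.0324) and 0.75 ± 0.13 in SW620 (0.00110). Fitting SW480 alone ended its call, as did leaving out SW480 caffeine replicate 2 (adjusted p = 0.310, the highest), SW480 control replicate 2 or either SW620 control library. The SW620 call and the difference between the lines (1.29 ± 0.18, edgeR adjusted p = 0.000489) held under all alternatives. Between controls, 4 of the 17 receptors were higher in SW620 and 9 lower, beside 33.0% and 32.6% of all tested genes. TNFRSF19, EDAR and TNFRSF1B were lower in SW620 than in SW480 controls, with log2 differences of -5.15, -7.12 and -2.10. The receptor gene IL1RAP was higher, with a log2 difference of 2.66.

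Of 20 tested adaptors and ubiquitin ligases 4 rose with caffeine in SW620, beside 8.10% of all tested genes, and none was called in SW480, beside 3.60%. BCL10 (0.58 ± 0.15, edgeR adjusted p = 0.0160) and MALT1 (0.52 ± 0.14, 0.0180), which encode an adaptor and a protease that act upstream of IKK, rose and lost their calls on leaving out 1 library at a time, for 4 and 3 of the SW620 libraries respectively, with adjusted p up to 0.181 and 0.165. TRAF3IP2 (0.49 ± 0.15, 0.0397) lost its call under 6 alternatives. BCL10 measured 12.8 and 13.8 CPM in SW620 control and 20.3 and 19.3 CPM in SW620 caffeine libraries, against 12.8 and 15.2 CPM in SW480 control and 11.1 and 10.0 CPM in SW480 caffeine libraries. The responses of BCL10 and MALT1 differed between the lines, by 0.98 ± 0.22 and 0.95 ± 0.19 (edgeR adjusted p = 0.0115 and 0.00758). Without SW620 control replicate 1 the BCL10 and MALT1 differences were no longer called (adjusted p = 0.0824 and 0.0546), and that of BCL10 also ended without SW620 control replicate 2.

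Of 16 kinases of the IKK complex and upstream of it, 3 rose and 1 fell in SW620, where 8.10% and 6.25% of all tested genes did, and none was called in SW480, where 3.60% of all tested genes were. IRAK2 rose from 18.3 and 19.6 to 32.2 and 29.9 CPM (0.71 ± 0.14, edgeR adjusted p = 0.00241, and 0.0652 without SW620 control replicate 1). RIPK2 (0.47), IKBKE (0.51) and IRAK1 (-0.42) each lost their calls on leaving out 1 library, for 3 or 4 of the SW620 libraries, with adjusted p up to 0.243. MAP3K14 and CHUK, the kinases that drive p100 processing, were chosen after their values were seen, and were not called in SW620 (0.06 ± 0.14 and -0.18 ± 0.13, edgeR adjusted p = 0.839 and 0.425). MAP3K14 measured 14.1 and 13.1 CPM in SW620 control and 14.3 and 14.0 CPM in SW620 caffeine libraries. These are transcript levels, and p100 processing was not tested. None of the 7 other subunit and inhibitor genes was called for caffeine in either line, REL among them. NFKBIZ, which encodes another nuclear IkB, was higher in SW620 than in SW480 controls (2.47 ± 0.28, edgeR adjusted p = 7.99e-07) and NFKBID lower (-1.80 ± 0.19, 2.60e-07).

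Of 16 tested negative regulators outside the 10 genes, 5 rose in SW620, beside 8.10% of all tested genes, and none was called in SW480, beside 3.60%. PDLIM2, a nuclear ubiquitin ligase for RELA, rose from 11.9 and 11.6 to 28.9 and 27.7 CPM (1.27 ± 0.17, edgeR adjusted p = 0.000101). TNIP1 and TAX1BP1, which encode partners of A20, rose by 0.73 ± 0.12 and 0.71 ± 0.13 (edgeR adjusted p = 0.000441 and 0.00123). These 3 kept their calls under all alternatives, whereas OTUD7B (0.53 ± 0.15, 0.0264) lost its call on leaving out any 1 of 3 SW620 libraries.

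Of 29 tested target genes outside the pathway, 13 rose and 1 fell in SW620, and 0 rose and 2 fell in SW480, beside backgrounds of 8.10% and 6.25% in SW620 and 1.67% and 1.93% in SW480. The chemokine genes CXCL8 and CCL20, the syndecan SDC4 and the cytokine LIF were those with the smallest adjusted p in SW620. CXCL8 rose from 56.9 and 64.2 to 178 and 165 CPM (1.50 ± 0.15, edgeR adjusted p = 4.49e-06), CCL20 from 2.99 and 3.31 to 10.7 and 11.8 CPM (1.83 ± 0.24, 8.07e-05). These 4 genes kept their calls under all alternatives. CXCL8 was far lower in SW480, with log2 differences (SW620 minus SW480) of 10.7 among controls and 9.66 with caffeine. A response of CXCL8 confined to SW620 is thus not shown. The adhesion molecule gene ICAM1 fell in SW480, from 30.3 and 28.1 to 18.3 and 18.4 CPM (-0.67 ± 0.14, edgeR adjusted p = 0.0169), and was also the gene that fell in SW620 (-0.71 ± 0.22, edgeR adjusted p = 0.0441, named after its value was seen), where it was at 1.67 to 2.91 CPM. The ICAM1 call in SW480 ended without SW480 caffeine replicate 2 or SW480 control replicate 1, with adjusted p up to 0.144, and F3 (-0.66 ± 0.17, 0.0405), the other gene that fell there, lost its call under 9 alternatives. Of the 29 targets 9 responded more positively in SW620 than in SW480 and none less, among them LIF (1.34 ± 0.16, edgeR adjusted p = 0.000126), SDC4 (1.31 ± 0.18, 0.000282), the early response gene IER3 (1.14 ± 0.17, 0.000815) and TNFAIP2 (1.00 ± 0.19, 0.00529), and these 4 kept their calls under all alternatives. The median log2 fold change of the tested targets was 0.36 in SW620 and -0.20 in SW480, beside -0.01 and 0.00 over all genes.

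**Figure D4:**
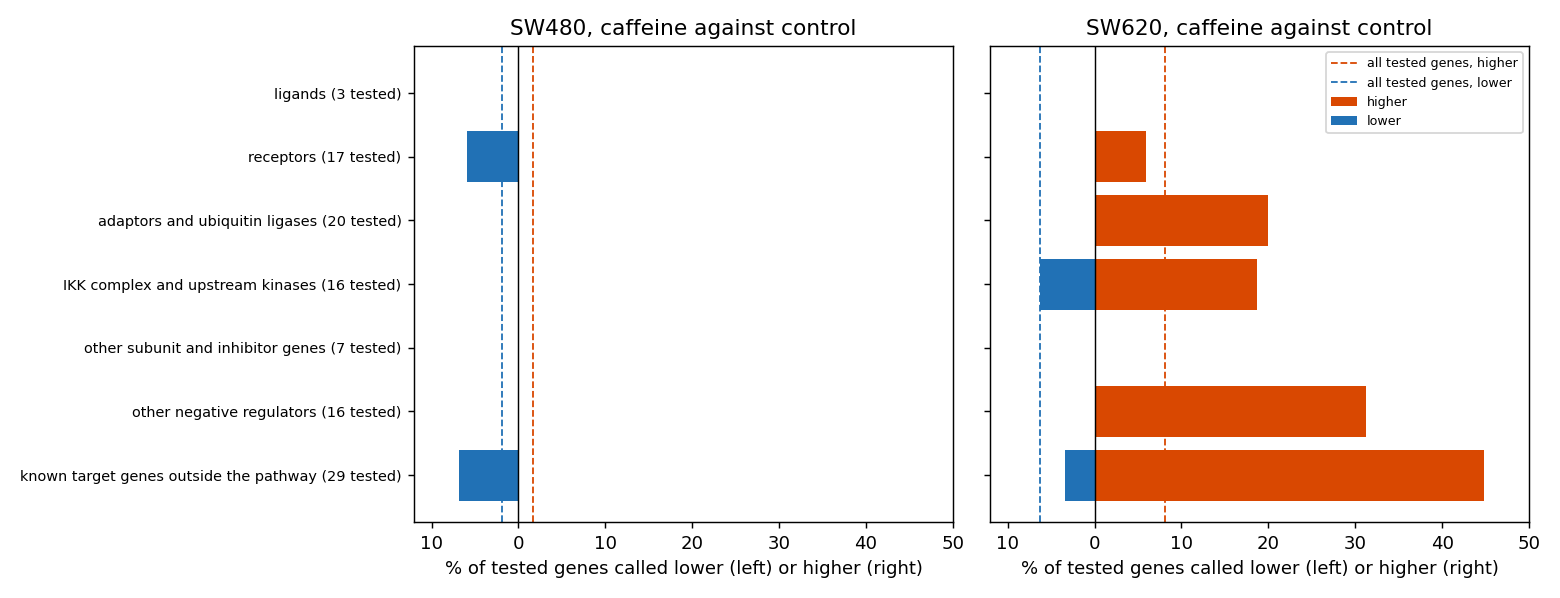
Share of the tested genes of each pathway list called higher (right) or lower (left) with caffeine by edgeR, in %, for SW480 and SW620, with dashed lines for the share among all tested genes. In SW620 the largest share called higher is that of the target genes, 13 of 29, and ligands and other subunit genes have no call in either line.

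The genes whose levels ran most closely with 2 of the members were found by Pearson correlation of log2 CPM over the 8 libraries, among 14569 other genes, as a description, since the libraries share lines and treatments. For NFKB2 these were GBE1, TMCC1, BAIAP2L1, KLF6 and AKAP12, with r from 0.979 to 0.982. Like NFKB2 they stood highest in SW620 caffeine libraries, GBE1 (a glycogen branching enzyme) at a mean of 120 CPM against 41.3 to 45.4 CPM in the other groups. For NFKBIA they were SHANK2, PTPRM, HDAC4, SLC39A5 and AMIGO2, with r from 0.998 to 0.999. These followed the difference between the lines, HDAC4 with means of 241 and 246 CPM in SW620 and 74.4 CPM in both groups of SW480.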

How the data were processed

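Per the labels, RNA with an integrity number of at least 8 was made into directional poly-A libraries (NEBNext Ultra II) and sequenced as 75 bp single-end reads. The authors deposited raw counts per Ensembl gene, and per the submitters' processing notes used Trim Galore, STAR 2.7.3a, featureCounts 2.0.5 and hg38. Strand setting and annotation release: not given in the sources used here. Of 62649 gene IDs 62625 matched a symbol and 58225 GENCODE 29, the source of exon lengths. Exons of RELA, NFKBIB, BCL3 and TNFAIP3 shared up to 2.00% of their length with another gene, and the other 6 shared none.

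All 8 libraries were fitted together in edgeR 4.0.16 (R 4.3.3; filterByExpr, TMM, robust quasi-likelihood F test, a mean per group), with Benjamini-Hochberg adjustment over 17671 genes and a threshold of 0.05. The fit was tested on simulated data. Levels are TMM-scaled CPM, and log2 CPM used a prior count of 2. Replicates differed by more than sampling noise in every group, and more so in SW480. The chi-square of counts between replicates, per degree of freedom, was 41.8 in SW480 caffeine and 21.1 in SW480 control. It was 10.6 in SW620 caffeine and 2.96 in SW620 control. Alternatives were DESeq2 size factors, no filter on low counts, DESeq2 1.42.0, limma-voom (limma 3.58.1), a replicate block, a separate fit of each line, and each library left out, where a lone library is assumed to vary like the other groups. The members, lists and tests were chosen with earlier results of these data known. All 10 members were named, and of each list up to 4 called genes per comparison, by adjusted p, apart from 1 gene that is not reported here. Floors cover counting error only, whereas SE and SD include the spread between libraries. The SE of a log2 value was derived from the edgeR test, as the absolute log2 value over the root of F. It thus rests on the joint fit of all 8 libraries, with a spread moderated across genes, and not on the libraries of the compared groups alone.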

Additional observations from a re-analysis of the deposited data

Results flagged for a closer look

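The caffeine effect differed between the lines for 3 of the 10 genes by the interaction test of edgeR. The differences of the log2 effects (SW620 minus SW480) were 1.45 for NFKB2, 1.33 for BCL3 and 1.72 for BIRC3. Among all tested genes 6.71% were called for this difference. The NFKB2 call held under all 13 alternatives, whereas that of BCL3 ended under 6 and that of BIRC3 under 5 of them. Groups of 2 are too small for a check of single outlying libraries.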

How the results depend on the processing

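The count of the 10 genes called stayed within 1.5 times its value in all comparisons and alternatives, apart from the following. With limma-voom 1 gene in place of 3 was called for the difference between the lines. With 1 library left out, 3 to 6 genes were called for caffeine in SW620 and 1 to 3 for the difference between the lines. With the replicate block 5 genes were called for caffeine in SW620, and the other counts did not change. Same-numbered libraries correlated weakly in their deviations from the group means (r from 0.0105 to 0.0265), so that the numbers were not taken as pairs. Over all tested genes, the SW480 caffeine calls ran from 50 to 1367 and those of SW620 from 787 to 3225 with 1 library left out, those of the difference from 421 to 2156, and the calls were 1073 with no filter in SW480 and 4545 in a separate fit of SW620. With library totals in place of TMM the members' mean levels were 0.990 to 1.009 times those of the main setting. With totals without mitochondrial genes they were 1.03 to 1.07 times. The log2 ratios of subunits kept their signs with exon lengths of the basic transcript set, with which the order of levels changed.

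Signs turned only for values that were not called. The NFKB2 difference between controls was -0.0062 with DESeq2 size factors or DESeq2 and -0.0040 with no filter, where NFKB2 in SW480 was 0.0020 and RELA between caffeine groups -0.0061. With 1 library left out, the log2 values in SW480 ranged from -0.16 to 0.015 for NFKB1, -0.17 to 0.12 for NFKB2, -0.11 to 0.16 for RELB, -0.014 to 0.15 for NFKBIA, -0.087 to 0.29 for NFKBIB, -0.11 to 0.20 for NFKBIE, -0.029 to 0.12 for BCL3, -0.69 to 0.029 for TNFAIP3 and -1.05 to 0.0057 for BIRC3. In SW620 they ranged from -0.0020 to 0.20 for NFKB1, -0.012 to 0.072 for NFKBIA and -0.14 to 0.0094 for NFKBIB. The difference of effects ranged from -0.12 to 0.045 for NFKBIA, -0.35 to 0.020 for NFKBIB and -0.21 to 0.53 for TNFAIP3. Between caffeine groups RELA ranged from -0.037 to 0.068 and NFKBIE from -0.24 to 0.062, and NFKB2 between controls from -0.078 to 0.095. The cause was not tested.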
